A study of Mus musculus with 2 samples.

Results

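Guidance genes encode ligands and receptors that attract or repel migrating cells and growing axons. The group described here holds 55 genes of the semaphorin and plexin, ephrin and Eph, Slit and Robo, and netrin systems. Its members were the probe sets whose only annotated symbol was on a list of gene names, and that list was drawn up with earlier results of these data known. They were 132 probe sets of 54 genes, out of 34945 probe sets of 18193 genes on the array. Of the 55 genes, 52 had a signal at or above a floor of 22.5 on at least 1 array and are called measured. Sema6b and Slit1 stayed below the floor on both arrays, and no probe set with Ephb2 as its only symbol was analysed here.

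Signals came from 2 samples of cells sorted from embryos of Col2a1-Venus-Tg mice on a C57Bl/6 background. Venus is a modified green fluorescent protein that marks chondrocytes, the cells of cartilage, in these mice. Venus-positive cells and Venus-negative cells of the same transgenic line were each hybridised once, to a mouse expression array made by Affymetrix. The sources used here do not give the stage or number of the embryos or the gates of the sort. Each group is thus 1 array, so no value has a replicate error, no test between the groups was possible, and each difference below describes this pair of arrays.

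The label was checked against markers. Col2a1, the reporter's own gene, had a signal of 8443 in Venus-positive cells and 606 in Venus-negative cells, and all 7 chondrocyte markers were more than 2-fold higher in the Venus-positive fraction. Every measured endothelial, epithelial, skeletal muscle and leukocyte marker was lower in Venus-positive cells by 2-fold or more. Summed signals of these lists and of the neuron and smooth muscle lists were 151 to 299 in Venus-positive cells, against 845 to 4017 in Venus-negative cells. The fibroblast and perichondrium list summed to 10140 in Venus-positive cells, against 21610 in Venus-negative cells, with 5 of 7 markers lower by 2-fold or more. The 3 glial and neural crest markers measured summed to 249 in Venus-positive cells, against 310.1 in Venus-negative cells. Pecam1, Plvap and Tek of endothelium, Myh3 and Ttn of muscle and Ptprc and Tyrobp of leukocytes were below the floor in Venus-positive cells. Many guidance genes are used by these other cell types, and the part of such cells in the differences below was not tested. In a mixed fraction, fewer cells that use a gene and less RNA of it per cell cannot be told apart.

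Semaphorins are secreted or membrane-bound ligands that act mostly through plexins, and class 3 members, which are secreted, usually need a neuropilin as co-receptor. Ephrins are cell-surface ligands of the Eph receptor tyrosine kinases, with A-type ephrins held by a lipid anchor and B-type ephrins spanning the membrane. Slits signal through Robo receptors, and netrins through Dcc, Neo1 and the Unc5 receptors. Beyond the nervous system these pathways set cell boundaries and guide vessels, and several act in the developing skeleton.

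The class 3 semaphorin genes Sema3c, Sema3d and Sema3e and the receptor gene Epha2 were more than 2-fold higher in Venus-positive than in Venus-negative cells, and Slit2, Epha3, both netrins, Efnb3 and Plxnc1 were among the lower ones. On the deposited scale, 4 of the 52 measured members, or 7.69%, had a signal raised by 2-fold or more in Venus-positive cells, where 2.79% of all 11789 measured genes did. Lower by 2-fold or more were 12 members, or 23.1%, where 11.6% of all genes were. No member was 4-fold higher, where 0.874% of all genes were, and 2 were 4-fold lower, where 2.24% were. The Venus-positive array was the dimmer one, and the log2 ratio of its signal over the Venus-negative one had a median of -0.33 over all measured genes. Relative log2 ratios below have this median subtracted. Relative to the median gene, 6 of the 52 members were higher by 2-fold or more, where 597 of all 11789 genes, or 5.06%, were. Lower by that size were 8 of the 52, where 760 of all genes, or 6.45%, were. The median log2 ratio of the 52 members was -0.39, close to that of all genes. These shares describe a list chosen with earlier results known.

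**Figure D1:**
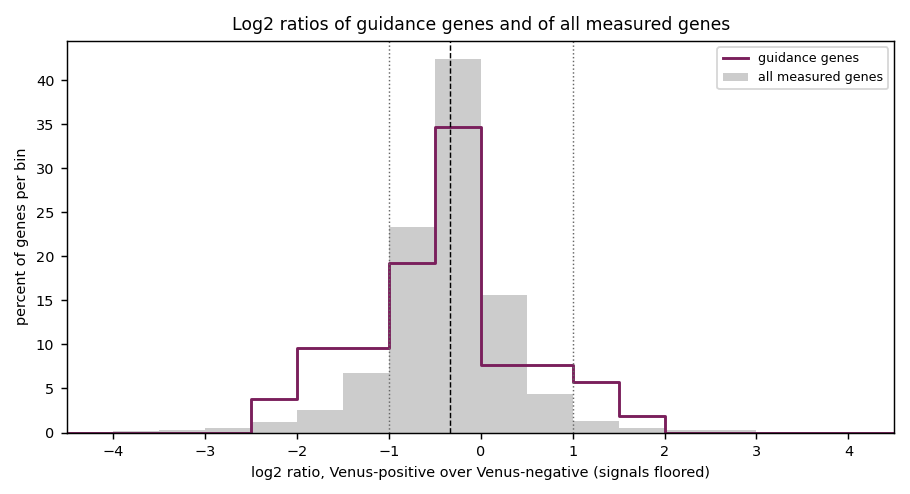
Share of genes in each bin of the log2 ratio (Venus-positive signal over Venus-negative), for the 52 measured guidance genes (line) and all 11789 measured genes (grey bars). Dotted lines mark 2-fold, the dashed line marks the median of all genes at -0.33, and guidance genes fill more of the bins from 2-fold to 4-fold on both sides, while none lies beyond 4-fold higher.

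All 6 listed class 3 semaphorin genes were measured. Sema3c, Sema3d and Sema3e were over 2-fold higher in Venus-positive cells, where 2.79% of all genes were. None of the 6 was 2-fold lower, where 11.6% of all genes were, and a count of 0 among so few is near that share. The count also rests on the probe set taken for Sema3f, whose mean over probe sets was a log2 ratio of -1.18. Sema3c had a signal of 1180 in Venus-positive cells and 445 in Venus-negative cells, 2.65-fold higher. Sema3d had 700.3 in Venus-positive cells and 263 in Venus-negative cells, 2.66-fold higher. Sema3e, a ligand that binds Plxnd1 without a neuropilin, had 134 in Venus-positive cells and 52.5 in Venus-negative cells, 2.56-fold higher. These 3 genes held places 184, 183 and 201 from the top among the log2 ratios of all 11789 measured genes. Other probe sets gave the same direction. The second one of Sema3c had 131 in Venus-positive cells against 63.1 in Venus-negative cells, and that of Sema3d 68.3 in Venus-positive cells against 24.6 in Venus-negative cells. A further one of Sema3e had 103 in Venus-positive cells against 36.3 in Venus-negative cells, while its weakest measured one was near the floor, at 26.4 in Venus-positive cells and 15.95 in Venus-negative cells.

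The other 3 listed class 3 genes gave mixed values. Sema3a, a repellent of axons that also acts in bone, had 177 in Venus-positive cells and 221 in Venus-negative cells, level with the median gene at a relative log2 ratio of 0.01. Sema3b had 31.4 in Venus-positive cells and 12.4, below the floor, in Venus-negative cells, at least 1.40-fold higher. This is a lower bound, and with a floor lowered to the 25th percentile the log2 ratio of Sema3b was 1.35, against 1.36 for Sema3e. Sema3f had 141 in Venus-positive cells and 232 in Venus-negative cells, 1.65-fold lower, on a probe set prone to cross-hybridisation. Its other measured probe sets had 33.7 in Venus-positive cells against 94.4 in Venus-negative cells and 11.1, below the floor, in Venus-positive cells against 56.8 in Venus-negative cells. Sema3f thus differed from the 3 raised genes on every measured probe set, and without the first of these its log2 ratio was -1.49, past 2-fold. The median log2 ratio of the class was 0.92, or 1.25 relative to the median gene, and it was 0.23 over 5 genes when the floor was set to the 75th percentile of the signals, where Sema3e had a log2 ratio of 0.23 and Epha2 of 0.84.

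Some genes of this class are neighbours on the genome. In the RefSeq table of assembly GRCm38.p6, Sema3d, Sema3a, Sema3e and Sema3c follow each other in this order on chromosome 5, with 0 protein-coding genes between Sema3d and Sema3a, 3 between Sema3a and Sema3e and 15 between Sema3e and Sema3c. Sema3a thus lies between higher neighbours with a ratio of its own. Sema3b and Sema3f are on chromosome 9 with 3 protein-coding genes between them, and their log2 ratios had opposite signs, at least 0.48 and -0.72.

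The sequences before the starts of the 4 higher genes, and of the 2 genes that were over 4-fold lower on the deposited scale, are shown because these 6 genes were past those sizes. Ephb1, whose value is a lower bound, is not among them. They are the 250 bases upstream of the start that RefSeq lists (GRCm38.p6), written on the strand of the gene. The windows are chr5:17574566-17574815 (plus strand) for Sema3c, chr5:12382916-12383165 (plus) for Sema3d, chr5:14025026-14025275 (plus) for Sema3e, chr4:141300971-141301220 (plus) for Epha2, chr5:47982905-47983154 (plus) for Slit2 and chr16:63864176-63864425 (minus) for Epha3. Capitals mark matches to any of 4 short motifs searched on both strands, and no matches overlapped. The motif of the box bound by the basal machinery was spelled TATAAA. The box rich in G and C that is bound by Sp proteins was spelled GGGCGG. The core bound by SOX factors was spelled AACAAT. The core bound by RUNX factors was spelled TGTGGT.
Sema3c: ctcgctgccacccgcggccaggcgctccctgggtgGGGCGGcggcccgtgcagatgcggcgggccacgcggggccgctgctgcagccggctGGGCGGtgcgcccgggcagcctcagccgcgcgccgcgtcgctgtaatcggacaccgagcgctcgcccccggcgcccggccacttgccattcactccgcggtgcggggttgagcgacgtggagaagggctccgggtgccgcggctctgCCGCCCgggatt
Sema3d: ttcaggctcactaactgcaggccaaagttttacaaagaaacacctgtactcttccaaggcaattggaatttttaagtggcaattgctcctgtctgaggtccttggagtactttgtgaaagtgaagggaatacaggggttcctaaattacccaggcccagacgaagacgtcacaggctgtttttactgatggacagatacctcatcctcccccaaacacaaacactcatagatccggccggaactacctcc
Sema3e: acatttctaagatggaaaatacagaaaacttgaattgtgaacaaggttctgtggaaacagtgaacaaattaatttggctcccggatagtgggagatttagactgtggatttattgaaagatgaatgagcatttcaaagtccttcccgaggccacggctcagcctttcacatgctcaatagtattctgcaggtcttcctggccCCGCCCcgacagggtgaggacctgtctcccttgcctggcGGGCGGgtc
Epha2: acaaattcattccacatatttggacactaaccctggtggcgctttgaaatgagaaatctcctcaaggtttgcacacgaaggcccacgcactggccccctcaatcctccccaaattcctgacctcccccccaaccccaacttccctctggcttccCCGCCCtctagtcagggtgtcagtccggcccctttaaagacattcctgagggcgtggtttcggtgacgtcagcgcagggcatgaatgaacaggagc
Slit2: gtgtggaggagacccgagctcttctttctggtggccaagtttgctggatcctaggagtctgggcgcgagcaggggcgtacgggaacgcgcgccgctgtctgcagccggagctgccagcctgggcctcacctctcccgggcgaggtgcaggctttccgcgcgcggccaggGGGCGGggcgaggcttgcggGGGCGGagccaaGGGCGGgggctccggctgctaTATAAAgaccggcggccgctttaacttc
Epha3: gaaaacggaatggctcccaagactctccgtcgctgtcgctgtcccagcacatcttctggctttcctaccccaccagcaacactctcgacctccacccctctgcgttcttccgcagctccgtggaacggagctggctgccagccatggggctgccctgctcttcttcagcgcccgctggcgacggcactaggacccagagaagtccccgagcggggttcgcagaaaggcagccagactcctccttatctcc

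The windows differed in base composition. That of Sema3c was 78.4% G and C with 39 CpG and 3 GC boxes, while that of Sema3d was 46.8% with 4 CpG and had no match to any of the 4 motifs. Sema3e was at 48.0% with 7 CpG and 2 GC boxes, and Epha2 at 55.6% with 9 CpG and 1 GC box. Slit2 was at 69.6% with 25 CpG, 3 GC boxes and the only match to TATAAA in the 6 windows, from base -28 to base -23. Epha3 was at 62.8% with 16 CpG and had no match. The 3 raised semaphorin genes thus shared none of these features as a set. Of 62 listed promoters of 46 member genes, 71% held GGGCGG, where 32.7% of all 32851 promoters did. TATAAA was in 3.23% of the members' promoters and 12.4% of all promoters. AACAAT was in 3.23% of the members' and 9.42% of all promoters. TGTGGT was in 12.9% of the members' and 14% of all promoters. The median G and C content was 64.4% in the members' promoters and 52.4% in all. A match is a run of letters and says nothing of binding.

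The membrane-bound semaphorins were mostly within 2-fold. Sema5a, a transmembrane ligand with thrombospondin repeats, was past it, with 191 in Venus-positive cells and 524 in Venus-negative cells, 2.74-fold lower. Its other measured probe sets had 146 in Venus-positive cells against 297 in Venus-negative cells and 14.9, below the floor, in Venus-positive cells against 30.8 in Venus-negative cells, and the mean over its probe sets was a log2 ratio of -0.98, just within 2-fold. Its relative Sema5b had 15.4, below the floor, in Venus-positive cells and 40.4 in Venus-negative cells, at least 1.80-fold lower. As a lower bound this does not place Sema5b within 2-fold, and with the floor at the 25th percentile its log2 ratio was -1.39.

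In class 6, whose members bind plexins of the A type, Sema6a had 186 in Venus-positive cells and 111 in Venus-negative cells, 1.67-fold higher, with a relative log2 ratio of 1.07. Sema6d had 159 in Venus-positive cells and 251 in Venus-negative cells, 1.58-fold lower. Sema6c was level, at 53.3 in Venus-positive cells and 52.9 in Venus-negative cells. The class thus held one gene on each side and one between them. Sema6b, the fourth, had 17.0 in Venus-positive cells and 2.16 in Venus-negative cells, both below the floor, so no fold is given. Sema7a, a lipid-anchored ligand of Plxnc1, had 59.5 in Venus-positive cells and 38.5 in Venus-negative cells, 1.55-fold higher.

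The 4 listed class 4 genes lay within 2-fold, with a median log2 ratio of -0.34 that was 0.03 after quantile normalization. Sema4c, a ligand of Plxnb2, had 182 in Venus-positive cells and 227 in Venus-negative cells. Sema4d, a ligand of Plxnb1, had 47.1 in Venus-positive cells and 60.9 in Venus-negative cells. Sema4a had 35.8 in Venus-positive cells and 39.5 in Venus-negative cells. This was its only measured probe set, of a type prone to cross-hybridisation. Sema4b had 34.4 in Venus-positive cells and 61.1 in Venus-negative cells, 1.78-fold lower. None of the 4 was above its Venus-negative signal on the deposited scale, where 9110 of all 11789 measured genes had log2 ratios below 0. Against the median gene, 2 of the 4 were above and 2 below.

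**Figure D2:**
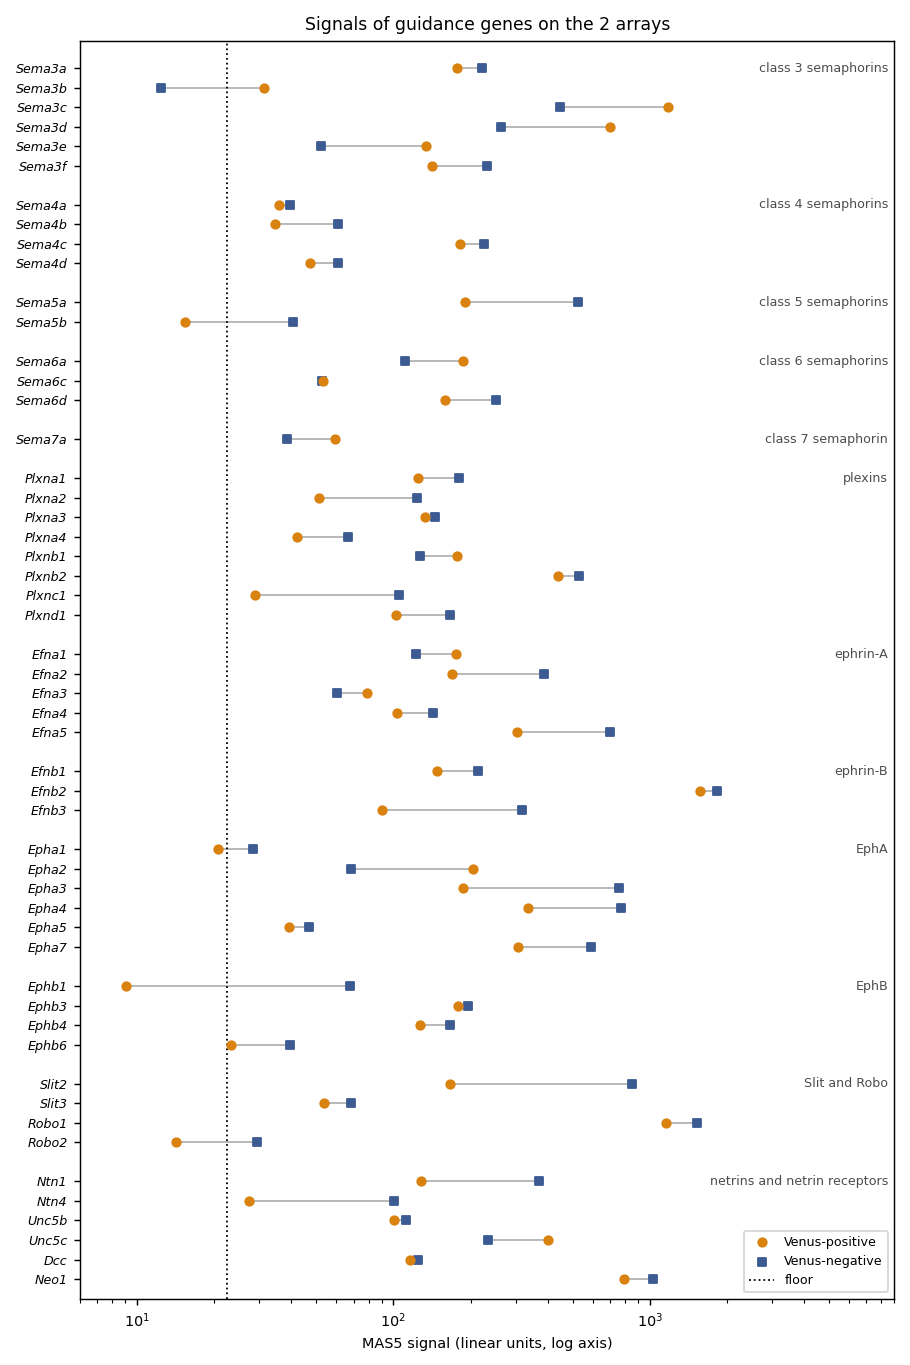
MAS5 signal of each measured guidance gene (log axis) in Venus-positive cells (orange circles) and Venus-negative cells (blue squares), by family, for the probe set with the highest mean signal. The dotted line is the floor of 22.5. Orange lies far to the right for Sema3c, Sema3d, Sema3e and Epha2, and far to the left for Slit2, Epha3, Efnb3, Ntn4, Plxnc1 and Ephb1. The Venus-positive signal of Ephb1 is below the floor.

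The 8 listed plexins, the semaphorin receptors, were all measured. None of them was 2-fold higher in Venus-positive cells, and 2 were over 2-fold lower, where 11.6% of all genes were. Their median log2 ratio was -0.60, or -0.27 relative to the median gene. Plxnc1 had 29.0 in Venus-positive cells and 106 in Venus-negative cells, 3.64-fold lower, and its other measured probe set had 13.6, below the floor, in Venus-positive cells against 47.9 in Venus-negative cells. Plxna2 had 51.5 in Venus-positive cells and 124 in Venus-negative cells, 2.41-fold lower, and its 4 probe sets gave log2 ratios from -1.27 to -0.95. Relative to the median gene its value was -0.94, within 2-fold. Plxna1 had 125 in Venus-positive cells and 180 in Venus-negative cells, and Plxna3 had 133 in Venus-positive cells and 145 in Venus-negative cells. Plxna4 had 41.9 in Venus-positive cells and 66.5 in Venus-negative cells, 1.59-fold lower. All 4 A-type plexins were below their Venus-negative signal on the deposited scale, where 9110 of all 11789 measured genes had log2 ratios below 0. Relative to the median gene Plxna3 was at 0.21.

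Plxnd1, the receptor of Sema3e and a gene prominent in endothelium, had 103 in Venus-positive cells and 167 in Venus-negative cells, 1.63-fold lower, opposite in direction to its ligand. Plxnb2 had 439 in Venus-positive cells and 531 in Venus-negative cells. Plxnb1 was unsettled, since one probe set had 177 in Venus-positive cells against 128 in Venus-negative cells and the other 119 in Venus-positive cells against 136 in Venus-negative cells. The neuropilins, which are co-receptors of class 3 semaphorins and also bind VEGF, were lower to unequal extents. Nrp1 had 272 in Venus-positive cells and 937 in Venus-negative cells, 3.45-fold lower, and Nrp2 had 492 in Venus-positive cells and 666 in Venus-negative cells. None of the listed plexins and neuropilins was 2-fold higher, and with 2.79% of all genes at that size a count of 0 among so few is near the background.

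Of the ephrin ligands, 3 of 8 were over 2-fold lower in Venus-positive cells, where 11.6% of all genes were. None was 2-fold higher, near the 2.79% of all genes. Efnb3 had 90.5 in Venus-positive cells and 317 in Venus-negative cells, 3.502-fold lower, and this was its only probe set. Efna5 had 305 in Venus-positive cells and 701 in Venus-negative cells, 2.30-fold lower. Efna2 had 169 in Venus-positive cells and 386 in Venus-negative cells, 2.29-fold lower. Relative to the median gene Efna5 and Efna2, at -0.87 and -0.86, were within 2-fold, and Efnb3, at -1.48, was not.

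The other ephrins were within 2-fold. Efna1, the ligand with a preference for Epha2, had 176 in Venus-positive cells and 123 in Venus-negative cells, and its second probe set 100.0 in Venus-positive cells and 56.8 in Venus-negative cells. Efna3 had 79.0 in Venus-positive cells and 60.2 in Venus-negative cells. Both lay above 0 on each of their probe sets. Efna4 had 103 in Venus-positive cells and 143 in Venus-negative cells. Efnb2, a ligand of Ephb4 in vessels that is also used by bone cells, had 1573 in Venus-positive cells and 1831 in Venus-negative cells. Efnb1, whose loss in mice and humans disturbs skeletal patterning, had 147 in Venus-positive cells and 213 in Venus-negative cells, while another of its probe sets was at 84.1 in Venus-positive cells against 76.6 in Venus-negative cells. The A-type ligands were thus split, with Efna1 and Efna3 on the higher side and Efna2 and Efna5 on the lower.

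The Eph receptors were split in the same way within the A type. Epha2 had 204 in Venus-positive cells and 68.2 in Venus-negative cells, 2.99-fold higher on its only probe set and place 153 from the top among all measured genes. Epha3 had 187 in Venus-positive cells and 762 in Venus-negative cells, 4.07-fold lower, and its relative log2 ratio of -1.69 was within 4-fold. Its other measured probe sets had 80.8 in Venus-positive cells against 414 in Venus-negative cells and 30.7 in Venus-positive cells against 80.2 in Venus-negative cells. Receptors of one type thus lay past 2-fold in both directions. Epha4, a receptor for ephrins of both types, had 335 in Venus-positive cells and 770 in Venus-negative cells, 2.30-fold lower, with log2 ratios from -1.27 to -0.80 over 5 probe sets. Its relative value of -0.87 was within 2-fold.

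Epha7 had 307 in Venus-positive cells and 589 in Venus-negative cells, 1.92-fold lower, but its 4 probe sets ran from -0.94 to 0.20 on the log2 scale. Epha5 had 39.3 in Venus-positive cells and 46.7 in Venus-negative cells. Epha1, a gene of epithelia, had 20.6, below the floor, in Venus-positive cells and 28.4 in Venus-negative cells. Among B-type receptors only Ephb1 passed 2-fold, with 9.08, below the floor, in Venus-positive cells and 68.0 in Venus-negative cells, at least 3.02-fold lower on 1 probe set. Ephb3 had 178 in Venus-positive cells and 196 in Venus-negative cells. Ephb4, a receptor of veins and of bone-forming cells, had 127 in Venus-positive cells and 167 in Venus-negative cells. Ephb6, which lacks kinase activity, had 23.3 in Venus-positive cells and 39.6 in Venus-negative cells, 1.70-fold lower and close to the floor. The 4 measured EphB genes all had log2 ratios below 0 on the deposited scale, where 9110 of all 11789 measured genes did. Relative to the median gene Ephb3 was at 0.20.

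**Figure D3:**
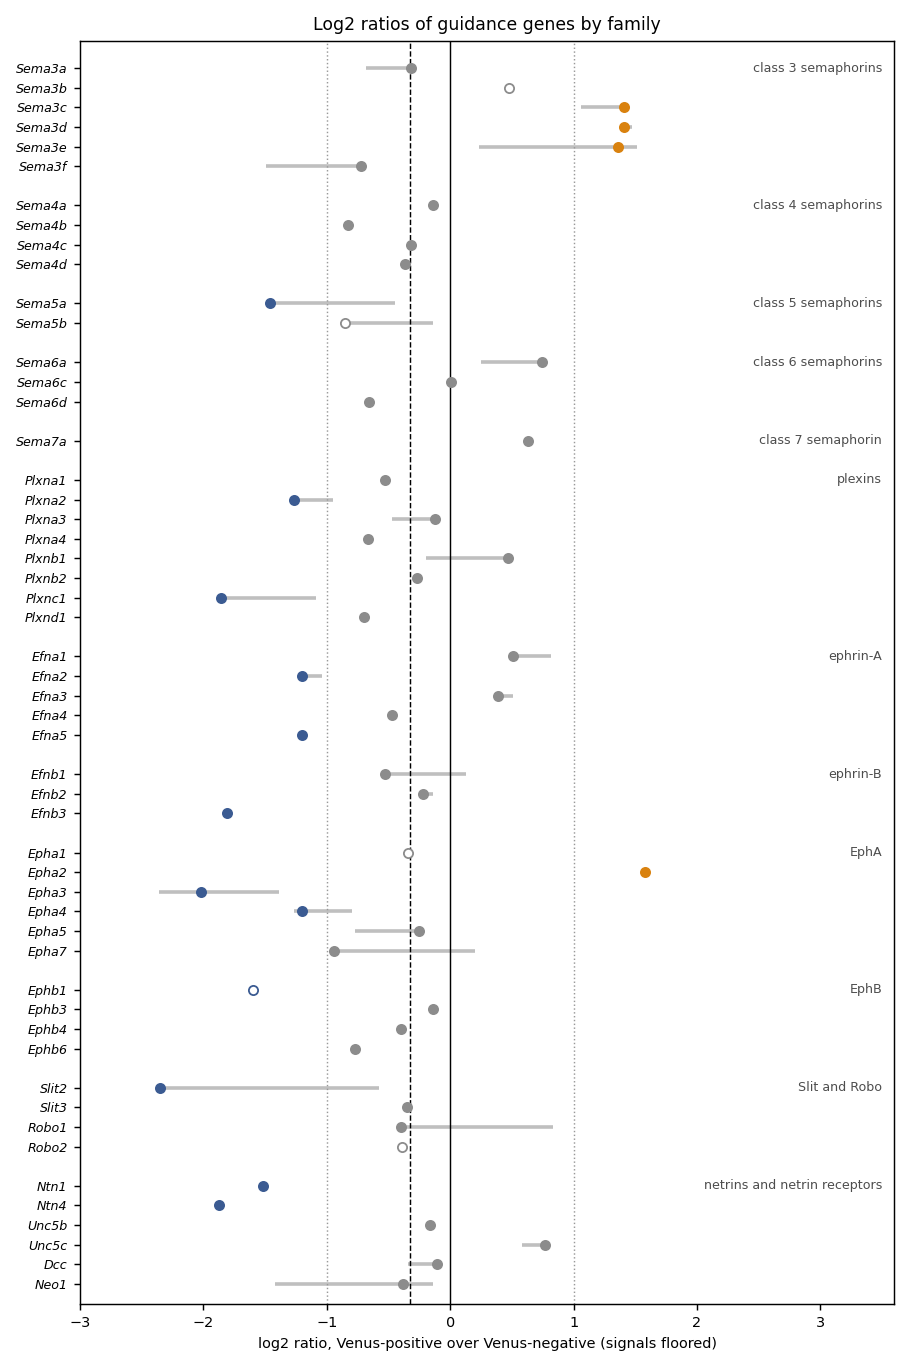
Log2 ratio (Venus-positive signal over Venus-negative) for each measured guidance gene, by family. Points are the brightest probe set by mean signal (orange 2-fold higher or more, blue 2-fold lower or more, open where 1 side was below the floor, so the value is a bound), grey bars span all measured probe sets of the gene, dotted lines mark 2-fold and the dashed line the median gene at -0.33. The A-type Eph receptors run from 1.58 for Epha2 to -2.02 for Epha3.

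Slit2, a secreted repellent and ligand of Robo receptors, was over 4-fold lower in Venus-positive cells. Its signal was 166 in Venus-positive cells and 850 in Venus-negative cells, 5.11-fold lower and place 150 from the bottom among all measured genes. Its order against the other low members depended on the settings. With the mean over probe sets its log2 ratio was -1.77, against -1.92 for Epha3 and -1.87 for Ntn4, and with the floor at the 25th percentile Ephb1 was at -2.91, against -2.35 for Slit2 and -2.02 for Epha3. Another probe set had 36.0 in Venus-positive cells and 187 in Venus-negative cells, and the dimmest, with 11.1, below the floor, in Venus-positive cells and 33.7 in Venus-negative cells, was at least 1.498-fold lower. Slit3 had 53.6 in Venus-positive cells and 68.3 in Venus-negative cells, level with the median gene. Slit1 was below the floor on both arrays, at 3.02 in Venus-positive cells and 8.49 in Venus-negative cells on one probe set and 2.16 in Venus-positive cells and 1.99 in Venus-negative cells on the other. Of the Slit genes with a signal above the floor, Slit2 was past 2-fold and Slit3 was not.

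Both listed Slit receptors were measured. Robo1 had 1160 in Venus-positive cells and 1531 in Venus-negative cells, a relative log2 ratio of -0.07, and a dimmer probe set had 46.2 in Venus-positive cells against 26.01 in Venus-negative cells. Robo2 had 14.2, below the floor, in Venus-positive cells and 29.5 in Venus-negative cells, at least 1.31-fold lower. Robo1 was thus within 2-fold with no firm direction. The value of Robo2 is a lower bound that does not place it within 2-fold, and with the floor at the 25th percentile its log2 ratio was -1.05.

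Both listed netrins were over 2-fold lower in Venus-positive cells, where 11.6% of all genes were. Ntn1, the founding axon attractant of the family, had 129 in Venus-positive cells and 370 in Venus-negative cells, 2.88-fold lower. Ntn4, a netrin of basement membranes that binds laminin, had 27.5 in Venus-positive cells and 101 in Venus-negative cells, 3.66-fold lower. Each rests on 1 measured probe set. Among their receptors, Unc5c, which mediates repulsion, had 402 in Venus-positive cells and 235 in Venus-negative cells, 1.71-fold higher. Its second probe set had 208 in Venus-positive cells and 139 in Venus-negative cells. Relative to the median gene it was 1.11 on the log2 scale, past 2-fold. Unc5b had 100.3 in Venus-positive cells and 112 in Venus-negative cells. Dcc, the attractive receptor, had 116 in Venus-positive cells and 125 in Venus-negative cells. Neo1, which also binds repulsive guidance molecules, had 792 in Venus-positive cells and 1033 in Venus-negative cells, with log2 ratios from -1.42 to -0.14 over 4 probe sets. These 4 receptors lay within 2-fold on the deposited scale, while Unc5d, a further netrin receptor, was at least 3.31-fold lower.

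Seen by role, 3 of 28 measured ligands and 1 of 24 measured receptors were over 2-fold higher in Venus-positive cells, and 7 ligands and 5 receptors were over 2-fold lower. The higher shares were 10.7% of ligands and 4.17% of receptors, where 2.79% of all genes were higher, and the lower shares were 25% of ligands and 20.8% of receptors, where 11.6% of all genes were lower. Relative to the median gene, 4 of 28 ligands and 2 of 24 receptors were higher by 2-fold or more, where 5.06% of all genes were. By the same measure 5 of 28 ligands and 3 of 24 receptors were lower, where 6.45% of all genes were. Median log2 ratios were -0.36 for ligands and -0.39 for receptors, both close to -0.33 for all genes. The sign of the log2 ratio differed between probe sets for 4 of the 27 members with several measured ones, namely Plxnb1, Efnb1, Epha7 and Robo1, and none of these was past 2-fold.

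Other genes of these pathways were 52 co-receptors, further family members and intracellular partners, of which 40 were measured. None was 2-fold higher in Venus-positive cells, near the 2.79% of all genes, and 8 were over 2-fold lower, or 20.0%, where 11.6% of all genes were. Their median log2 ratio was -0.47. Further semaphorins and plexins were among them. Sema3g, also of class 3, had 14.1, below the floor, in Venus-positive cells against 23.9 in Venus-negative cells. In class 4, Sema4f had 52.6 in Venus-positive cells against 70.6 in Venus-negative cells, and Sema4g had 68.9 in Venus-positive cells against 113 in Venus-negative cells. Plxnb3 had 15.8, below the floor, in Venus-positive cells against 41.4 in Venus-negative cells, at least 1.84-fold lower. Besides Nrp1, the genes over 2-fold lower were the netrin receptor gene Unc5d, with 10.0, below the floor, in Venus-positive cells against 74.4 in Venus-negative cells, and Flrt3, an Unc5 ligand, with 245 in Venus-positive cells against 641 in Venus-negative cells. Among the collapsin response mediators that act below semaphorin receptors, Dpysl3 had 199 in Venus-positive cells against 557 in Venus-negative cells and Crmp1 had 13.0, below the floor, in Venus-positive cells against 52.3 in Venus-negative cells. The kinase gene Fyn had 129 in Venus-positive cells against 335 in Venus-negative cells. Mical3, related to the oxidoreductase that acts on actin below plexins, had 23.6, close to the floor, in Venus-positive cells against 59.5 in Venus-negative cells. Mical1 went the other way, with 145.6 in Venus-positive cells against 95.9 in Venus-negative cells, 1.52-fold higher. Of the 40 measured pathway genes 36 had log2 ratios below 0 and 4 above, namely Mical1, Srgap2, Farp1 and Farp2. Vav3, an exchange factor that Eph receptors use, had 18.9, below the floor, in Venus-positive cells against 45.6 in Venus-negative cells. Markers of other cell types were lower by 2-fold or more too, where 11.6% of all genes were. Of those measured, these were 5 of 7 neuronal, 7 of 7 endothelial, 7 of 7 epithelial and 6 of 6 skeletal muscle markers. The same held for 6 of 6 leukocyte, 5 of 7 fibroblast and perichondrium, 4 of 6 smooth muscle and 1 of 3 glial markers. The part of these cells was not tested.

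The 16 members past 2-fold kept their direction under all 8 alternative settings that gave them a value. For several settings this was fixed beforehand. Centring, by -0.33, and control scaling, by -0.27, shift values too little to turn a 2-fold difference. A changed or absent floor cannot reverse the 2 signals of a probe set. The kept direction is thus little evidence of stability, and every setting uses the same 2 arrays. Sema3c, Sema3d, Efnb3, Epha3, Slit2 and Ntn1 stayed past 2-fold under every one of the 8. Centring, quantile normalization and control scaling brighten the Venus-positive array. They raised the log2 ratios of Sema3c and Sema3d from 1.41 to values between 1.65 and 1.74, so they could not remove these calls.

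**Figure D4:**
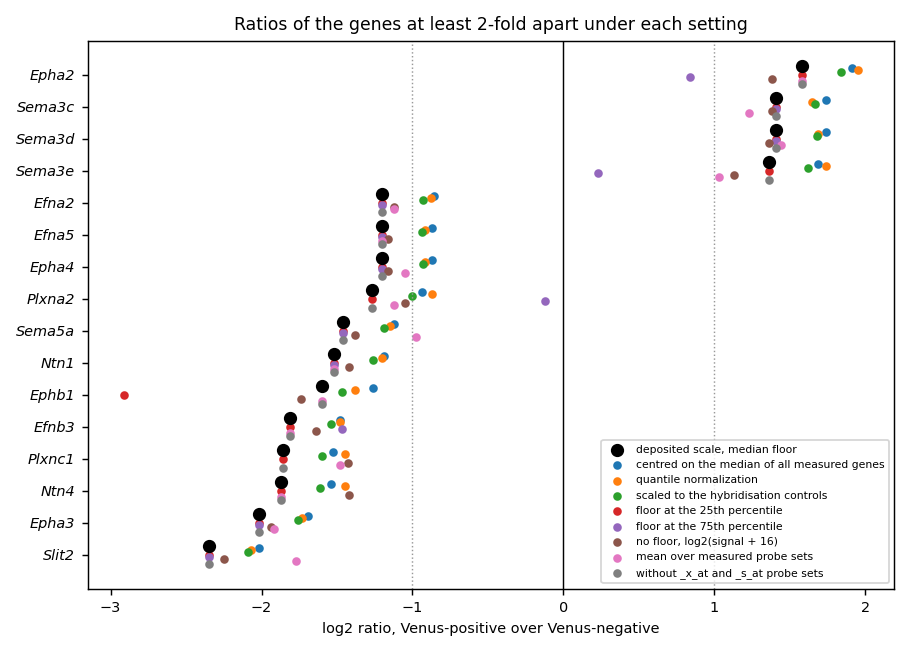
Log2 ratio (Venus-positive signal over Venus-negative) of the 16 guidance genes that differed by 2-fold or more, on the deposited scale (large black points) and under the 8 alternative settings (small coloured points). Dotted lines mark 2-fold. No gene crosses 0, which centring, control scaling and the floor settings could hardly bring about. Epha2, Sema3e, Plxna2, Sema5a, Efna2, Efna5 and Epha4 come inside 2-fold under at least 1 setting.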

How the data were processed

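RNA of 1 Venus-positive and 1 Venus-negative sample was hybridised to 1 array each. The authors deposited 1 linear intensity per probe set, made with MAS5 according to the submitters' processing notes. Its version, the scaling target and detection calls are not stated there. The number of arrays limits the precision.

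The 64 control probe sets were set aside, and genes were named only from probe sets with 1 symbol in the platform annotation. All 55 member symbols were in the RefSeq table. The floor, the median of all other signals of both arrays, stands in for detection calls. Lower signals were set to it before log2, so a fold against a side below it is a lower bound, written "at least". A gene was represented by its probe set of highest mean log2 signal. With 1 array a group there is no test, and counts use fixed sizes of 2-fold and 4-fold. Every measured member was named with both signals, with a fold from 1.5-fold apart, and of the other pathway genes those at least 2-fold apart. Nrp2, Sema3g, Sema4f, Sema4g, Plxnb3, Mical1, Srgap2, Farp1 and Farp2 were named after their values were seen. Promoter motifs and the 6 sequences shown were also chosen after the values were seen. Members and lists were chosen with earlier results of these data known. The procedure was tested on simulated data, with changes of 4-fold or more in genes well above the floor. That test did not cover changes nearer 2-fold or signals near the floor. Python 3.11.15, numpy 2.4.6 and pandas 2.3.3 were used.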

Additional observations from a re-analysis of the deposited data

How the results depend on the processing

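8 settings were changed one at a time: centring on the median gene, quantile normalization, scaling to the 18 hybridisation controls, floors at the 25th and 75th percentiles, log2(signal + 16) with no floor, the mean over probe sets, and dropping those named _x_at or _s_at. Values were taken as kept within 0.34 on the log2 scale. This is the pooled standard deviation between probe sets of 1 gene, over all measured genes with several. Over the 27 such members it was larger, at 0.44. Counts were taken as kept within 1.5 times. The 4 higher members were 7 with quantile normalization, where 5.09% of all genes were higher. They were 2 of 34 measured members with the higher floor, where 2.44% of all genes were higher. The 12 lower members ran from 8 to 14, while the share of all genes that were lower ran from 6.39% to 16.1%. The 2 members over 4-fold lower were 1 after centring, quantile normalization, control scaling or without a floor, and 0 with probe set means. On the deposited scale 2.24% of all genes were 4-fold lower, and that share was not taken under the other settings. With quantile normalization, which brightens the Venus-positive array, family medians were 0.03 for class 4, 0.44 for class 6 and 1.05 for class 7 semaphorins, -0.21 for plexins, -0.11 for ephrin-A and -0.18 for EphB. With the higher floor they were 0.23 for class 3 semaphorins, -0.20 for plexins, -1.07 for EphA and -1.38 for Slit and Robo genes, over fewer genes. With the lower floor they were 1.35 for class 3 and 0.38 for class 6, and with probe set means -0.74 for class 5. The netrin family's median of -0.27 was 0.06 after centring. Of 397 single-gene values 357 were kept, 40 moved and none of a 2-fold gene changed sign. Such a sign could hardly change with centring, control scaling or the floor settings. Centring, by -0.33, and control scaling, by -0.27, shift values by less than 0.34. The 52 values kept under each thus say nothing of stability. A kept value could also change sign within 2-fold, as Sema4a did, from -0.14 to 0.19 after centring. Plxnc1, Ephb1 and Ntn4 had no value with the higher floor. No paired analysis was possible because each group is 1 array.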
